A study of Mus musculus with 10 samples.

Results

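The miR-181 family comprises the mature products of 6 mouse hairpins, and the 10 members described here are the 5p and 3p arms of miR-181a, miR-181b, miR-181c and miR-181d. They were taken by name from a table of 1061 mature miRNAs, in which all 10 were present, and 9 of them were abundant enough to be tested among 484 miRNAs. Small RNA had been sequenced from both retinas of 5 wild-type C57BL/6J mice (numbers 61, 64, 65, 66 and 68) at postnatal day 34. Each mouse carried a goggle with a -20 D lens over 1 eye for 10 days from postnatal day 24, which is a way to induce myopia, and its other eye had no lens. Each label names the side of a retina, whereas the side that wore the lens is unlabelled. The 5 right retinas were therefore compared with the 5 left retinas of the same mice, and the word treated is used for neither. Retina is a mixed tissue, so fewer cells of a type and less RNA per cell cannot be told apart.

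A miRNA is cut from a hairpin RNA whose 2 arms give a 5p and a 3p product. The arm that is loaded into an Argonaute protein guides it to messenger RNAs that pair with the seed, bases 2 to 8 from the 5′ end, and these are repressed. The miR-181 family is conserved in vertebrates, is well known from lymphocytes, where miR-181a tunes T cell receptor signalling, and is abundant in the nervous system. In the retina it is known from amacrine and ganglion cells of the inner layers, where miR-181a and miR-181b have been linked to neurite growth and to control of mitochondrial turnover.

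The 5p arms, 4 in number, share 1 seed and differ behind it, which is why they count as 1 family. Their sequences in RefSeq (GRCm38.p6), 5′ to 3′ with the seed in capitals, are as follows.
miR-181a-5p: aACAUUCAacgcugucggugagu
miR-181b-5p: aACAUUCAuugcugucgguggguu
miR-181c-5p: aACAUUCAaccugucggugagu
miR-181d-5p: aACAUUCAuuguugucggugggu
No other of the 1679 mature mouse miRNAs in that RefSeq table has the seed ACAUUCA. miR-181c-5p is miR-181a-5p without the G at position 11. Counted from the 5′ end, miR-181b-5p differs from miR-181a-5p by A9U, C10U and A21G and is 1 base longer. miR-181d-5p differs from miR-181b-5p by C12U and is 1 base shorter. How reads were shared among such near-identical sequences is not given in the sources used here, so the split of reads between miR-181b-5p and miR-181d-5p, and between miR-181a-5p and miR-181c-5p, is uncertain.

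The 3p arms are more diverse and have 4 seeds among 6 members. They are shown because they tell apart the hairpins that share a 5p arm.
miR-181a-1-3p: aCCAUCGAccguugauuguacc
miR-181c-3p: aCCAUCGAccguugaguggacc
miR-181a-2-3p: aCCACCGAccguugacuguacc
miR-181b-1-3p: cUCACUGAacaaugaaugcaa
miR-181b-2-3p: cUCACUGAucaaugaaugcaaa
miR-181d-3p: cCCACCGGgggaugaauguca
miR-181a-1-3p and miR-181c-3p share a seed, as do miR-181b-1-3p and miR-181b-2-3p. miR-181a-1-3p and miR-181a-2-3p differ by U5C and U16C, and the first of these lies in the seed. miR-181b-1-3p and miR-181b-2-3p differ by A9U and by 1 base of length.

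The hairpins lie in 3 pairs in the GRCm38 build. On chromosome 1, the plus strand holds miR-181a-1 (5p arm from 137966468 to 137966490, 3p arm from 137966508 to 137966529) and miR-181b-1 (5p arm from 137966650 to 137966673, 3p arm from 137966690 to 137966710). Both are intronic to Gm4258, a processed transcript of the same strand, and the miR-181b-1 arms also lie in an exon of the lincRNA A430106G13Rik. On the opposite strand of that region runs an intron of the lincRNA Gm26936. On chromosome 2, the plus strand holds miR-181a-2 (5p arm from 38852741 to 38852763, 3p arm from 38852785 to 38852806) and miR-181b-2 (5p arm from 38853845 to 38853868, 3p arm from 38853883 to 38853904), opposite to introns of Nr6a1. On chromosome 8, miR-181c (5p arm from 84178924 to 84178945, 3p arm from 84178885 to 84178906) and miR-181d (5p arm from 84178759 to 84178781, 3p arm from 84178720 to 84178740) lie on the minus strand in an intron of the germ cell gene Nanos3. The 5p starts of a pair are 182 bases apart on chromosome 1, 1104 on chromosome 2 and 164 on chromosome 8. miR-181a-5p and miR-181b-5p are each encoded on chromosomes 1 and 2, but the deposited values place them on chromosome 1 only. Reads of such a 5p arm cannot be assigned to 1 of its 2 hairpins by sequence. Whether the values count reads of both hairpins is not given in the sources used here.

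**Figure D1:**
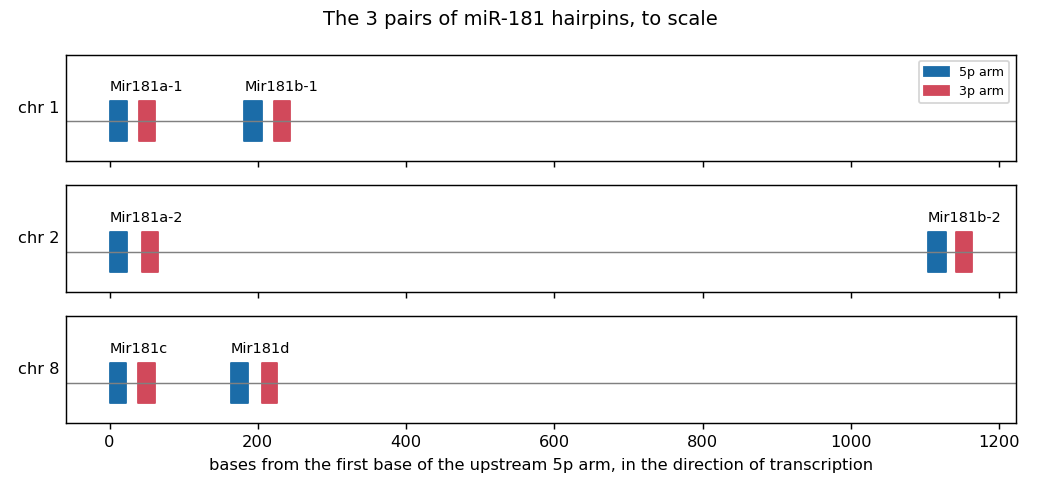
Positions of the 5p arms (blue) and 3p arms (red) of the 6 hairpins, drawn to scale in bases from the first base of the upstream 5p arm. The members of a pair start 182 bases apart on chromosome 1, 1104 on chromosome 2 and 164 on chromosome 8.

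The hairpins of miR-181a-1 and miR-181a-2 show the layout, with both mature arms in capitals. They contain the same 5p arm and 3p arms that differ at 2 bases.
Mir181a-1: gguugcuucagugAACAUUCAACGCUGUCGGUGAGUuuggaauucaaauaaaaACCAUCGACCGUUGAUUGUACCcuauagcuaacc
Mir181a-2: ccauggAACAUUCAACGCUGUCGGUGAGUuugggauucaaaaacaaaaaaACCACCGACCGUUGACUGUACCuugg
The first is 87 bases long with 17 bases between the arms, and the second is 76 bases long with 21 bases between them.

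The values are normalised read counts, here called normalised reads, and the authors' normalisation gave every library the same value at the same rank for all of the first 85 ranks. A value in that range therefore states which rank a miRNA held in its library. The libraries summed to between 17312269 and 17312436 normalised reads, the number of reads behind them is unknown, and no counting intervals can be given. Adapter ligation favours some sequences, so levels of different miRNAs are compared here only in normalised reads per mature miRNA of 21 to 24 bases, and not as numbers of molecules. The retinal identity of the libraries was checked with 7 miRNAs of photoreceptors, retinal neurons and pigment epithelium, all present, which took 63.04% of the total on average. Of these, the photoreceptor miRNA miR-182-5p held rank 1 and its cluster partner miR-183-5p held rank 3 in all 10 libraries. Among miRNAs of other tissues, the summed level of 5 lens, cornea and epithelium miRNAs ranged from 1220 to 2354 normalised reads in 9 libraries and was 22626 in the remaining one, the right retina of mouse 65. There miR-184-3p alone had 22384, and the other 4 members of that list lay within their range in the other libraries, with miR-203-3p at 213, miR-205-5p at 25.6, miR-200b-3p at 3.94 and miR-200c-3p listed at 0. The summed level of 4 skeletal muscle miRNAs reached 1742 in the left retina of mouse 68 and lay between 279 and 400 in the others.

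**Figure D2:**
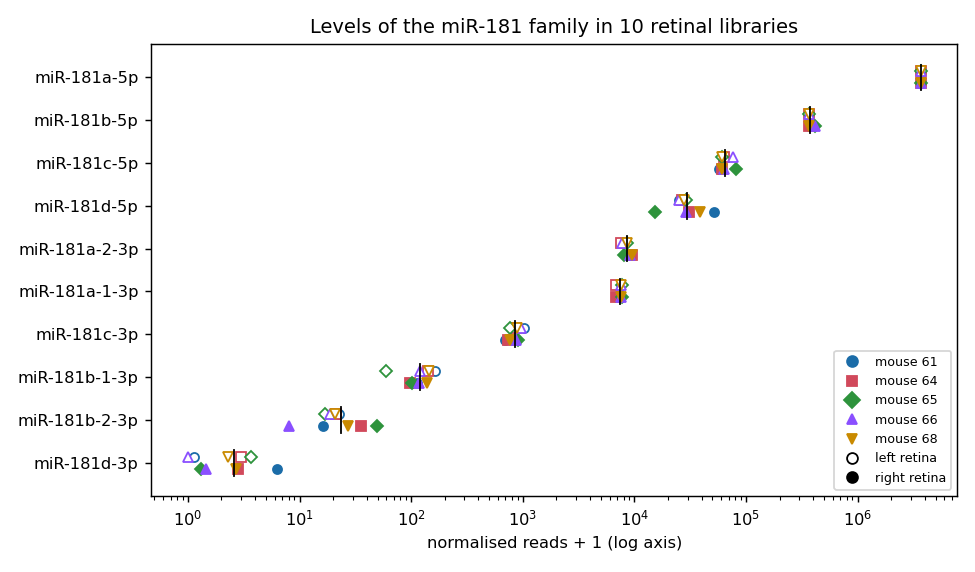
Levels of the 10 members in normalised reads plus 1 on a log axis, with left retinas as open and right retinas as filled symbols, 1 shape per mouse, and the mean over 10 libraries as a vertical bar. The 5p arms lie above all 3p arms, and the levels run from 3689310 for miR-181a-5p to below 6 for miR-181d-3p.

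Together the 10 members took 24.1% ± 0.129 (SD over 10 libraries) of the normalised total. This SD does not measure how much the share varied, because miR-181a-5p had 1 value fixed by its rank in all 10 libraries. miR-181a-5p alone made up 88.4% of the family and miR-181b-5p another 8.95%. The order of the levels was the same in all 10 libraries, from mmu-miR-181a-5p (mean 3689310 normalised reads) through mmu-miR-181b-5p (373816), mmu-miR-181c-5p (65037) and mmu-miR-181d-5p (29939) to miR-181a-2-3p, miR-181a-1-3p, miR-181c-3p, miR-181b-1-3p, miR-181b-2-3p and miR-181d-3p. miR-181a-2-3p and miR-181a-1-3p are the neighbours in this order whose ranges overlapped, with 7533 as the lowest value of the first and 7796 as the highest of the second. Between every other pair of neighbours the ranges did not overlap, although miR-181c-5p, with a lowest value of 57479, and miR-181d-5p, with a highest of 51974, came within 1.11-fold of each other in the right retina of mouse 61. The 3p arms, 6 in number, together were 0.405% ± 0.0166 of the family (SD over 10 libraries).

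miR-181a-5p held rank 2 in every library and therefore had the same value of 3689310 normalised reads in all 10. The neighbouring value at rank 3 was 5.35-fold lower, so changes of miR-181a-5p that left it between miR-182-5p and miR-183-5p could not be seen in these values. Its difference between the sides is 0.00 by construction.

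miR-181b-5p moved between ranks 4 and 5, which it shared with let-7a-5p. It was at 363774 normalised reads in all 5 left libraries and in the right libraries of mice 61, 64 and 68, and at 413985 in the right libraries of mice 65 and 66. The right mean was 383858 ± 27502 (SD, n = 5). The 2 high libraries are both right retinas, but the other 3 right retinas had the value of the left ones, and the step between these ranks is 1.14-fold. The log2 difference, right minus left, was 0.07 (SE 0.04, limma adjusted p = 0.958), and 0.05 without mouse 65 or without mouse 66.

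miR-181c-5p, the 5p arm of the upstream hairpin on chromosome 8, was at 63868, 63868, 60998, 76000 and 60998 normalised reads in the left retinas of mice 61, 64, 65, 66 and 68. In the right retinas of the same mice it was at 57479, 60998, 81300, 63868 and 60998. The sides overlapped throughout, with 1 high library on each, the left retina of mouse 66 and the right retina of mouse 65. The means were 65146 ± 6235 and 64928 ± 9428 (SD, n = 5), a log2 difference of -0.01 (SE 0.09, limma adjusted p = 1).

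miR-181d-5p was the most variable 5p arm. In the left retinas of mice 61, 64, 65, 66 and 68 it was at 24916, 26690, 28832, 24916 and 27971 normalised reads, a narrow range. In the right retinas it was at 51974, 30983, 15330, 28832 and 38949, so that both the highest and the lowest of the 10 values were right retinas. The right retina exceeded the left by 2.09-fold in mouse 61, 1.16-fold in mouse 64, 1.16-fold in mouse 66 and 1.39-fold in mouse 68, and was at 0.532 of the left in mouse 65. The left mean was 26665 ± 1769 and the right mean 33213 ± 13499 (SD, n = 5). Their log2 difference of 0.21 (SE 0.25, 95% interval from -0.40 to 0.82) did not pass the test, with a limma adjusted p of 0.971. Without mouse 61 the difference was -0.0020, and without mouse 65 it was 0.49. Among the 41 miRNAs with a mean of at least 10000 normalised reads, the SD of miR-181d-5p over the 10 libraries was the second highest, 0.45 on the log2 scale against a median of 0.16. The SD was 0.16 for miR-181c-5p and 0.08 for miR-181b-5p.

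**Figure D3:**
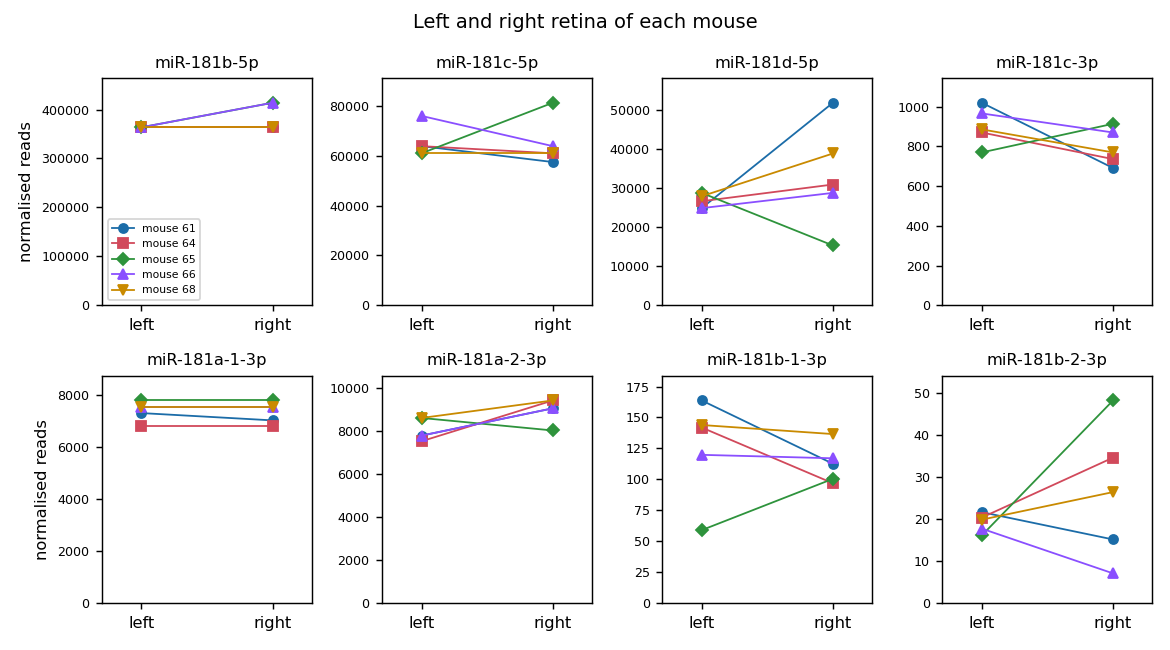
Normalised reads of 8 members in the left and right retina of each mouse, with the values of a mouse joined by a line and each vertical axis starting at 0. miR-181d-5p spread from 15330 to 51974 in the right retinas, whereas miR-181a-1-3p stayed between 6826 and 7796 in all libraries.

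The 3p arms of miR-181a were the most abundant of their kind. Their sequences differ at 2 bases and so can tell the chromosome 1 and chromosome 2 hairpins apart. How reads were shared between these 3p arms is not given in the sources used here, so the split between them is uncertain. miR-181a-1-3p was nearly equal in the 2 eyes of a mouse. It was at 6826 on both sides of mouse 64, 7796 on both sides of mouse 65 and 7533 on both sides of mice 66 and 68, and at 7309 in the left and 7028 in the right retina of mouse 61. Its log2 difference was -0.01 (SE 0.04, limma adjusted p = 0.994).

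miR-181a-2-3p was at 7796, 7533, 8618, 7796 and 8618 normalised reads in the left retinas of mice 61, 64, 65, 66 and 68. In the right retinas it was at 9068, 9435, 8035, 9068 and 9435. The right value was higher in 4 of 5 mice and lower in mouse 65, and without that library the right values would all lie above the left ones. The log2 difference of 0.16 (SE 0.07, 95% interval from -0.01 to 0.32) was the one with the smallest unadjusted p in the family, 0.0567 by limma. That p was 15th among the 484 miRNAs, and the adjusted p was 0.958. Without mouse 65 the log2 difference was 0.22 with an adjusted p by limma of 0.241. Over all alternatives for this miRNA the adjusted p ran from that value to 1.

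Within libraries, miR-181a-1-3p was 47.8% ± 0.954 of the 2 miR-181a 3p arms in left retinas and 44.9% ± 2.71 in right ones (SD, n = 5). The log2 ratio of miR-181a-1-3p to miR-181a-2-3p had its lower value on the right in 4 of 5 mice, with a mean difference of -0.17 ± 0.17 (SD over 5 mice). The exact two-sided sign-flip permutation test over mice gave p = 0.125, or 0.583 after Benjamini-Hochberg adjustment over the 14 ratios examined, and the smallest p that 5 mice allow is 0.0625.

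For miR-181b the chromosome 1 copy prevailed among the 3p arms. miR-181b-1-3p was at 164, 142, 58.9, 120 and 144 normalised reads in the left retinas of mice 61, 64, 65, 66 and 68, and at 113, 96.8, 100.4, 117 and 137 in the right retinas. The left retina of mouse 65 was the lowest of all. The right value was lower in 4 of 5 mice, with a log2 difference of -0.09 (SE 0.20, limma adjusted p = 0.978).

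miR-181b-2-3p was scarce, at 21.6, 20.4, 16.1, 17.7 and 19.9 normalised reads in the left retinas of mice 61, 64, 65, 66 and 68. In the right retinas it was at 15.1, 34.6, 48.3, 7.04 and 26.4, a 6.86-fold range against a narrow one on the left. Its log2 difference was 0.19 (SE 0.40, limma adjusted p = 0.978), and without mouse 65 it was -0.14. miR-181b-1-3p made up 83.7% ± 8.08 of the 2 miR-181b 3p arms (SD over 10 libraries). The chromosome 1 copy thus gave 46.4% ± 2.46 of the summed miR-181a 3p arms and 83.7% of the summed miR-181b 3p arms. These are shares of 3p arm values only, with the limit that ligation differs between sequences. The other arm has the same sequence in both copies, so the output of each hairpin as a whole was not tested. How reads were shared between the near-identical miR-181a-1-3p and miR-181a-2-3p, or between miR-181b-1-3p and miR-181b-2-3p, is also not given in the sources used here.

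miR-181c-3p was at 1020, 870.0, 770, 966 and 886 normalised reads in the left retinas of mice 61, 64, 65, 66 and 68. It was at 691, 736, 914, 870.0 and 770 in the right retinas. As for miR-181b-1-3p, the right value was the lower in 4 of 5 mice and the higher in mouse 65. The log2 difference was -0.18 (SE 0.12, 95% interval from -0.47 to 0.11, limma adjusted p = 0.958), and it was -0.29 without mouse 65 and -0.09 without mouse 61. miR-181d-3p was below the level at which miRNAs were tested, between 0 and 5.3 normalised reads. It was listed at 0 in the left retina of mouse 66, and values this low need not mean that the arm was detected.

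The ratio of 5p to 3p values differed widely among miR-181a, miR-181b, miR-181c and miR-181d. The limits of ligation and of unknown read sharing apply to these ratios too. The ratio was lowest for miR-181c, with 77.1 ± 7.66 (SD over 10 libraries) normalised reads of the 5p arm for each of the 3p arm. For miR-181a the 5p arm stood at 232 ± 11.8 times the summed 3p arms of both hairpins, and for miR-181b at 2789 ± 830. The value of miR-181a-5p is fixed by rank, so the SD for miR-181a comes from its 3p arms alone. For miR-181d the ratio had a median of 21516 over the 9 libraries in which the 3p arm was above 0, and its denominator was too low for it to be read as a level. In the right retina the log2 ratio of miR-181c-5p to miR-181c-3p was higher in 4 of 5 mice, by a mean of 0.17 ± 0.18 (SD over 5 mice), with an exact sign-flip p of 0.125 and an adjusted p of 0.583. None of the 14 ratios, 6 between arms and 8 between members, passed the exact sign-flip test, which cannot reach 0.05 with 5 mice.

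**Figure D4:**
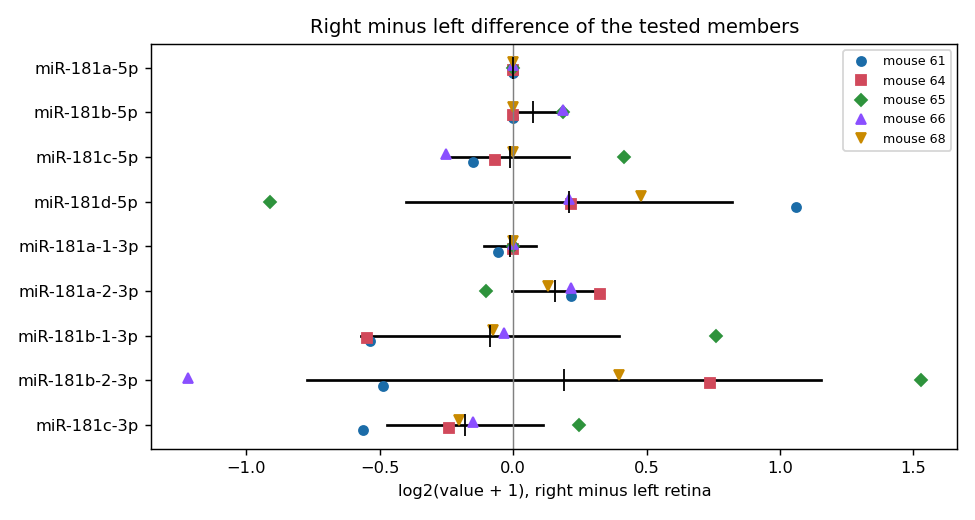
Differences in log2(value + 1), right minus left retina, for the 9 tested members, with 1 symbol per mouse, the mean as a tick and its 95% interval by limma as a line. All 9 intervals include 0, and mouse 65 lies on the side opposite to the other mice for miR-181d-5p, miR-181a-2-3p, miR-181b-1-3p and miR-181c-3p.

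Right and left retinas were compared to ask whether the family differed between the eyes of animals of which 1 eye had worn the lens. Of all 484 miRNAs tested with limma, 0 passed the adjusted p threshold of 0.05 (0%), and 12 (2.48%) had an unadjusted p under 0.05. Of the 9 tested members, 0 passed and 0 had an unadjusted p under 0.05. Without mouse 65, 4 members had such an unadjusted p by limma, beside 63 of all miRNAs tested in that setting. Of the 9 members, 4 had a log2 difference above 0, 4 below and miR-181a-5p was at 0. The median of the 9 was 0.00, which is the value of miR-181a-5p fixed by construction, so it is no measure of the family. Over all tested miRNAs the median was -0.01. The range of the 9 was from -0.18 to 0.21. Of all tested miRNAs, 18 (3.72%) had 1 direction in all 5 mice, and 0 of the 9 members did. For miR-181a-5p, miR-181b-5p, miR-181c-5p and miR-181a-1-3p this was not possible. Their values were equal in both eyes of 5, 3, 1 and 4 mice. If the lens sat over different eyes in different mice, its effect would be lost or weakened in a contrast of sides. Among the members that varied, miR-181b-5p and miR-181a-1-3p had the narrowest 95% intervals of the log2 difference. These were -0.01 to 0.16 for miR-181b-5p and -0.11 to 0.09 for miR-181a-1-3p. Both members moved only between fixed rank values, and a change that left the rank unaltered could not be seen. Their intervals therefore do not bound the true difference. For miR-181b-2-3p the 95% interval was -0.77 to 1.16, against a median half-width of 0.34 over all tested miRNAs.

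Summed over the 9 members other than miR-181a-5p, the right retina was the higher in each mouse, although the members that made the difference were not the same ones. The sum was 468870 on the left and 490146 on the right in mouse 61, 469725 and 472885 in mouse 64, and 470865 and 527509 in mouse 65. It was 481123 and 524281 in mouse 66 and 469945 and 481624 in mouse 68. As a share of the library total, the left mean was 2.73% ± 0.0294 and the right mean 2.88% ± 0.145 (SD, n = 5). In mice 65 and 66 the rank step of miR-181b-5p, from 363774 to 413985, was the largest component. That step was an exchange of ranks with let-7a-5p, so a rise of miR-181b-5p and a fall of let-7a-5p cannot be told apart. In mice 61, 64 and 68 the largest component was the difference of miR-181d-5p. This sum is given as a description without a test, since its members were chosen as a family and 1 rank step of its most abundant member sets much of it.

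Differences between animals were examined in the same fit, with an F test of mouse against the variation that remains between the 2 eyes. With limma, 8 of 484 miRNAs (1.65%) passed, and 0 of the 9 members. The smallest adjusted p among the members was 0.493, for miR-181a-1-3p, whose values were equal in both eyes of 4 mice but differed by no more than 1.14-fold between any libraries. The values of the 2 eyes differed to very unequal degrees among the members. On the log2 scale, the SD of the right-minus-left differences over 5 mice was 1.07 for miR-181b-2-3p, 0.72 for miR-181d-5p, 0.53 for miR-181b-1-3p, 0.29 for miR-181c-3p and 0.03 for miR-181a-1-3p. It was 0.26 for miR-181c-5p, 0.16 for miR-181a-2-3p and 0.10 for miR-181b-5p. miR-181b-2-3p and miR-181b-1-3p were scarce, with means of 22.7 and 119 normalised reads, and the abundant members moved only in rank steps. These SDs therefore do not measure biological spread between eyes alone.

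Members encoded by neighbouring hairpins had different patterns over the libraries. miR-181c-5p and miR-181d-5p start 164 bases apart on the same strand, but over the 10 libraries the highest value of miR-181c-5p, 81300, was found with the lowest of miR-181d-5p, 15330, in the right retina of mouse 65. The lowest value of miR-181c-5p, 57479, was found with the highest of miR-181d-5p, 51974, in the right retina of mouse 61. The log2 values had a Pearson r of -0.83 (Spearman -0.88) over 10 libraries, given as a description because the libraries come from 5 mice and share a normalisation by rank. It was -0.86 without the 2 libraries farthest from the median of miR-181c-5p and -0.55 without the right retinas of mice 61 and 65. For the other pairs of neighbours, r was -0.31 between miR-181a-1-3p and miR-181b-1-3p and -0.13 between miR-181a-2-3p and miR-181b-2-3p. Within mice, the right-minus-left differences of the 2 were of opposite sign in 4 mice, and in mouse 68 miR-181c-5p did not differ. miR-181c-3p, from the same hairpin as miR-181c-5p, differed in the direction opposite to miR-181d-5p in 5 of 5 mice and in the direction of miR-181c-5p in 4, with mouse 68 again at 0 for the latter. The log2 ratio of miR-181c-5p to miR-181d-5p ran from 0.15 to 2.41 over the libraries. Its right-minus-left difference was -0.22 ± 0.94 (SD over 5 mice, exact sign-flip p = 0.625, adjusted p = 0.963).

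**Figure D5:**
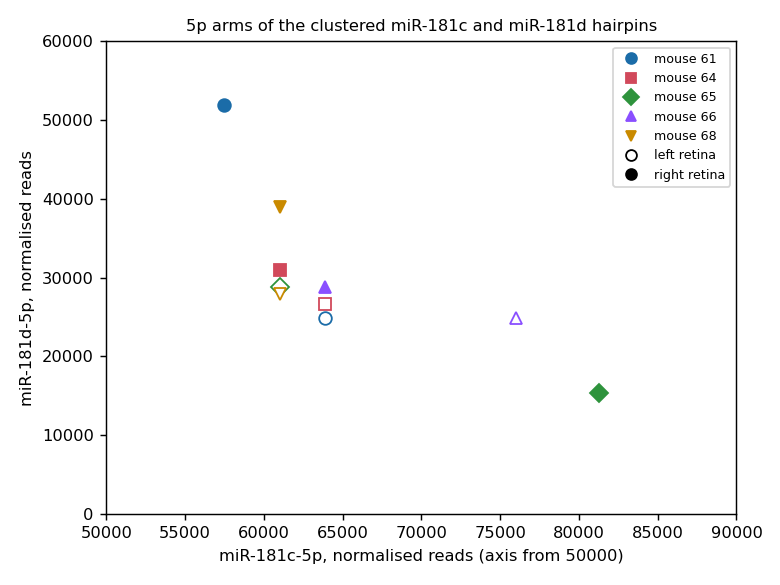
miR-181c-5p against miR-181d-5p in normalised reads, with left retinas as open and right retinas as filled symbols and 1 shape per mouse. The right retina of mouse 61 (57479 and 51974) and that of mouse 65 (81300 and 15330) lie at opposite ends.

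There were 28 pairs of members that were tested and varied. Of these, 2 had right-minus-left differences of the same sign in all 5 mice, and 4 of opposite sign in all 5. Pairs with miR-181b-5p, miR-181c-5p or miR-181a-1-3p could reach neither, since these had equal values in both eyes of 3, 1 and 4 mice. The same count was not made over pairs of all tested miRNAs, so a share to set beside it is missing. The count is therefore not read as a trait of the family. The 6 pairs with 1 pattern in all 5 mice are made of 4 members, so they are 1 observation and not 6. miR-181d-5p and miR-181a-2-3p stand on 1 side and miR-181c-3p and miR-181b-1-3p on the other. The first 2 were higher on the right in mice 61, 64, 66 and 68 and lower in mouse 65, and the other 2 the reverse. The 4 members come from 3 chromosomes, and in mature sequence their GC content was 43.5% for miR-181d-5p, 59.1% for miR-181a-2-3p, 59.1% for miR-181c-3p and 38.1% for miR-181b-1-3p. Leaving out mouse 65 also changed the count over all tested miRNAs with an unadjusted limma p under 0.05, from 12 to 63. Mouse 65, which sets the direction apart, is also the mouse whose right retina had the high value of miR-184-3p, a miRNA of lens and cornea, without high values of the other 4 miRNAs of that list. Whether this has a part in the values of the family was not tested.

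Other miRNAs resembled single members more than the members resembled each other. By Pearson r of log2 values over the 10 libraries, among 479 miRNAs that varied, the profiles closest to miR-181d-5p were those of miR-485-5p (0.952), miR-9768-5p (0.928) and miR-6236 (0.908). For miR-181c-3p they were miR-340-5p (0.918), miR-101a-3p (0.913) and miR-29c-3p (0.874), and for miR-181a-1-3p they were miR-425-5p (0.957), miR-379-5p (0.888) and miR-33-3p (0.824). miR-181a-2-3p was closest to miR-486a-5p (0.866), miR-1947-5p (0.831) and miR-486a-3p (0.803). miR-181b-1-3p was closest to miR-10b-5p (0.913), miR-384-3p (0.894) and miR-153-3p (0.892), and miR-181b-2-3p to miR-199b-5p (0.869), miR-322-5p (0.767) and miR-666-3p (0.760). For miR-181b-5p, with only 2 distinct values, they were miR-3068-3p (0.836), let-7d-3p (0.750) and miR-106b-5p (0.747), and for miR-181c-5p they were miR-3087-3p (0.798), miR-106b-5p (0.786) and let-7f-2-3p (0.762). No member was among the 3 closest of another. The largest of 479 correlations over 10 libraries are high in part because they were picked as the largest.

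The other miRNAs of retinal neurons gave a frame for these values. Of 12 miRNAs of a neuronal list, 11 were tested by limma for right against left, and 0 passed in either direction, with 4 above 0 and 7 below and a median log2 difference of -0.02. Its most abundant members were miR-124-3p, a miRNA of mature neurons, with 82241 ± 3763 normalised reads, and miR-9-5p, a miRNA of neural progenitors and neurons, with 52911 ± 6352 (SD over 10 libraries). miR-181c-5p, with 65037 ± 7536, lay between them, and miR-181b-5p was above both in all libraries. In the test between mice, 1 of the 11 passed, miR-128-3p (adjusted p by limma 0.00390). Of the photoreceptor cluster, miR-182-5p and miR-183-5p had 1 fixed value in all libraries and could not pass, and miR-96-5p passed neither test. Lymphoid and myeloid miRNAs, of interest because miR-181a is also a lymphocyte miRNA, summed to between 1589 and 2345 normalised reads over 5 members, with miR-150-5p as the most abundant at 1825 ± 242 (SD over 10 libraries). That sum is 0.0113% of the total, beside 21.3% for miR-181a-5p, whose value is fixed by its rank. These shares are not numbers of molecules, and which cells the miR-181a-5p reads came from was not tested.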

How the data were processed

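Small RNA of 10 mouse retinas had been sequenced from TruSeq Small RNA libraries, per the labels' protocols. The submitters' processing notes name Partek and Bowtie and the builds GRCm38 and mm10; adapter trimming, the miRNA annotation used and read assignment are each not given in the sources used here. Deposited values are a signal derived from read counts. The authors' values, once sorted, were identical across libraries at 342 of 1061 ranks, the pattern of quantile normalisation, so depth is unknown. Columns of other samples numbered 0.

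For the 484 miRNAs with a mean of at least 10, log2(value + 1), a scale that understates changes of low miRNAs, was modelled with limma 3.58.1 (R 4.3.3) on side and mouse, with a mean-variance trend. All tests were two-sided, and p was adjusted by Benjamini-Hochberg over the 484 miRNAs (threshold 0.05). Eyes are paired because both came from 1 animal; their deviations from the side means correlated over miRNAs by 0.0893 to 0.382 within mice and by -0.338 to 0.355 between mice. Ratios were compared by an exact sign-flip permutation test over mice. The fit was tried on simulated data with normal noise and no values fixed by rank. That trial does not show which differences of rank-fixed members could be detected. RefSeq (GRCm38.p6) gave sequences and positions for all 10 members, and GENCODE M21 the annotation. The deposited starts equalled those of RefSeq, but miR-181a-5p and miR-181b-5p were deposited with their chromosome 1 position only. Named were all members, the 3 miRNAs with the highest r for each varying member, and the 2 most abundant of the neuronal and photoreceptor lists; others were chosen after their values were seen. Members and lists were chosen with earlier results of these data known. Alternatives concerned the pseudocount, filter, block, trend, scaling, ranks and each mouse left out.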

Additional observations from a re-analysis of the deposited data

Results flagged for a closer look

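In 44 groups of 5 libraries (members and their log2 ratios by side), 7 values stood apart from the other 4 of their side by Dixon's criterion. Chance gives this in about 1 of 20 groups of normally distributed values without ties. The groups are not independent, since ratios share members, and values of the abundant members are fixed by rank and often tied. That rate need not hold here, so the number flagged is not read as an excess. In the left retina of mouse 66, miR-181c-5p had 76000 normalised reads, against 60998 to 63868 in the other left retinas. The log2 ratios of miR-181a-5p and miR-181b-5p to it were accordingly low there, at 5.60 and 2.26. In the right retina of mouse 65 miR-181c-5p was at 81300, against 57479 to 63868 in the other right retinas.

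In the same right retina of mouse 65, miR-181a-2-3p was low, at 8035 normalised reads against 9068 to 9435, and the log2 ratio of miR-181a-5p to it was 8.84, against 8.61 to 8.67 in the other right retinas. The left retina of that mouse stood apart in the log2 ratio of miR-181b-1-3p to miR-181b-2-3p, with 1.81 against 2.69 to 2.86.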

How the results depend on the processing

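The count of 0 miRNAs past the threshold between right and left held under all alternatives, also with no replicate block (0 miRNAs, smallest adjusted p by limma 0.544). No member passed either test in any alternative, and for right against left the smallest adjusted p among 116 values by limma was 0.241. At an unadjusted p under 0.05 the count over all miRNAs ran from 5 with a minimum mean of 100 to 63 without mouse 65, beside 12. Among the 9 members this count was 4 without mouse 65 (miR-181a-2-3p, miR-181d-5p, miR-181c-3p and miR-181c-5p). It was 1, miR-181a-2-3p, with no filter, with no replicate block and with median-ratio scaling, and 0 under the other alternatives. The number of miRNAs that differed between mice was 8, and 5 without the mean-variance trend, where the cause was not tested, and it ranged from 3 to 7 when each mouse was left out, with fewer samples.

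With median-ratio scaling the log2 difference was 0.0045 for miR-181c-5p and 0.0041 for miR-181a-1-3p, and with a pseudocount of 10 that of the ratio of miR-181d-5p to miR-181d-3p was 0.13, in place of -0.12, and -0.68 with a pseudocount of 0.1; the cause was not tested. Leaving out each mouse gave ranges that crossed 0 for miR-181c-5p (-0.12 to 0.049), miR-181d-5p (-0.0020 to 0.49), miR-181b-1-3p (-0.30 to 0.028) and miR-181b-2-3p (-0.14 to 0.54). The same held for the ratios of miR-181b-5p to miR-181b-2-3p (-0.50 to 0.19), miR-181d-5p to miR-181d-3p (-0.30 to 0.20), miR-181a-5p to miR-181c-5p (-0.049 to 0.12), miR-181a-5p to miR-181d-5p (-0.49 to 0.0020), miR-181b-5p to miR-181c-5p (-0.0024 to 0.16), miR-181b-5p to miR-181d-5p (-0.44 to 0.095) and miR-181c-5p to miR-181d-5p (-0.61 to 0.026). The family share was higher on the right by 0.11 to 0.19 percentage points in each of these.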
